A study of Homo sapiens with 12 samples.

Results

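The UBE2 genes encode the E2 ubiquitin-conjugating enzymes, which stand between the E1 enzymes that activate ubiquitin and the E3 ligases that choose the substrate. Members were taken as the protein-coding genes of GENCODE release 44 whose symbol starts with UBE2. This gave 37 of the 60609 genes in the count tables, all present in the files, and 31 of them were among the 13895 genes with enough counts to be tested. The cells were K562, an established erythroleukemic line derived from chronic myeloid leukemia in blast crisis. A group of 3 cultures received DMSO, the solvent control, and a group of 3 received 10 μM FT671, a compound that blocks the deubiquitinase USP7, for 48 h, with no genetic change in either group. RNA-seq of total RNA depleted of ribosomal RNA addressed how USP7 inhibition changes gene expression in leukemic cells, and the study describes independent experiments. The 6 ChIP samples of the series were not analysed here.

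An E1 enzyme loads ubiquitin onto the active-site cysteine of an E2, and the E2 then passes it, with an E3 ligase, to a lysine of the substrate. The E2 often decides which lysine of ubiquitin links the chain, so that some E2s start chains, others extend K48-linked chains that lead to the proteasome, and UBE2N extends K63-linked chains. A few members carry ubiquitin-like proteins instead, among them NEDD8 (UBE2M and UBE2F) and ISG15 (UBE2L6). USP7 acts at the opposite end of the pathway by removing ubiquitin from its substrates.

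Library totals ranged from 4555220 to 14250500 counts, and 3 counts, taken as the floor of detection, correspond to between 0.211 and 0.659 CPM (counts scaled to the library total), which covers counting error only. Expression is given as CPM after TMM scaling, and log2 fold changes compare FT671 with DMSO. All adjusted p-values were computed with edgeR (quasi-likelihood test) and corrected by Benjamini-Hochberg over all 13895 genes. DMSO replicate 3 stood somewhat apart, since its gene counts differed from the other DMSO libraries by a chi-square of 7.55 and 8.73 per degree of freedom, where those libraries differed from each other by 2.94. Without it, all 15 calls among the UBE2 genes were kept and 16 were made. Of 14 erythroid markers of K562, 13 were tested, of which 5 rose and 7 fell at an adjusted p of 0.05. Over all genes tested, 23.6% were higher and 26.5% lower, and these shares also stand beside the next list. The summed level of the erythroid markers was between 1307 and 1341 CPM in DMSO and between 1169 and 1212 CPM in FT671. The embryonic globin HBZ rose from 39.0 to 137 CPM (log2 fold change 1.79). Of 13 markers of other blood and stromal cells, 8 were tested and 3 of them rose (LYZ by 0.49, EPCAM by 0.49 and CD3D by 0.44). Their summed level was between 291 and 316 CPM in DMSO and between 360 and 376 CPM in FT671, and the B cell marker MS4A1 had 0 counts in every library. The share of mitochondrially encoded transcripts was 2.59% to 2.82% in DMSO and lower, at 1.47% to 1.76%, in FT671. The part of these shifts in the results below was not tested. Since these are bulk cultures, fewer cells of a kind and less RNA per cell cannot be told apart.

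As a family the UBE2 genes did not move one way. At an adjusted p of 0.05, 8 of the 31 genes tested were lower after FT671, against 26.5% of all genes tested, and 7 were higher, against 23.6% of all genes. UBE2J1, UBE2O and UBE2J2 were lower at the stricter threshold of 1e-05 used in the study's methods, against 4.13% of all genes. UBE2G2 was the 1 member higher at that threshold, against 1.79% of all genes. Log2 fold changes had a median of 0.027 over the members and −0.01 over all genes tested. In 8 members every FT671 library lay below every DMSO library, against 30.3% of all genes, and in 9 members every one lay above, against 26.8%. UBE2E2 passed the filter on low counts through FT671 alone, and without it 6 of 30 members were higher at 0.05 and 8 lay above. The shares called at 0.05 were thus near the background. With 1 library left out, the members lower at 1e-05 numbered between 0 and 4. None remained without DMSO replicate 1, FT671 replicate 2 or FT671 replicate 3, and 1 remained without DMSO replicate 2 or FT671 replicate 1. UBE2G2 was not past 1e-05 without DMSO replicate 1, FT671 replicate 2 or FT671 replicate 3, whereas all 4 kept the call at 0.05 throughout. The members higher at 0.05 numbered 3 without FT671 replicate 3.

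**Figure D1:**
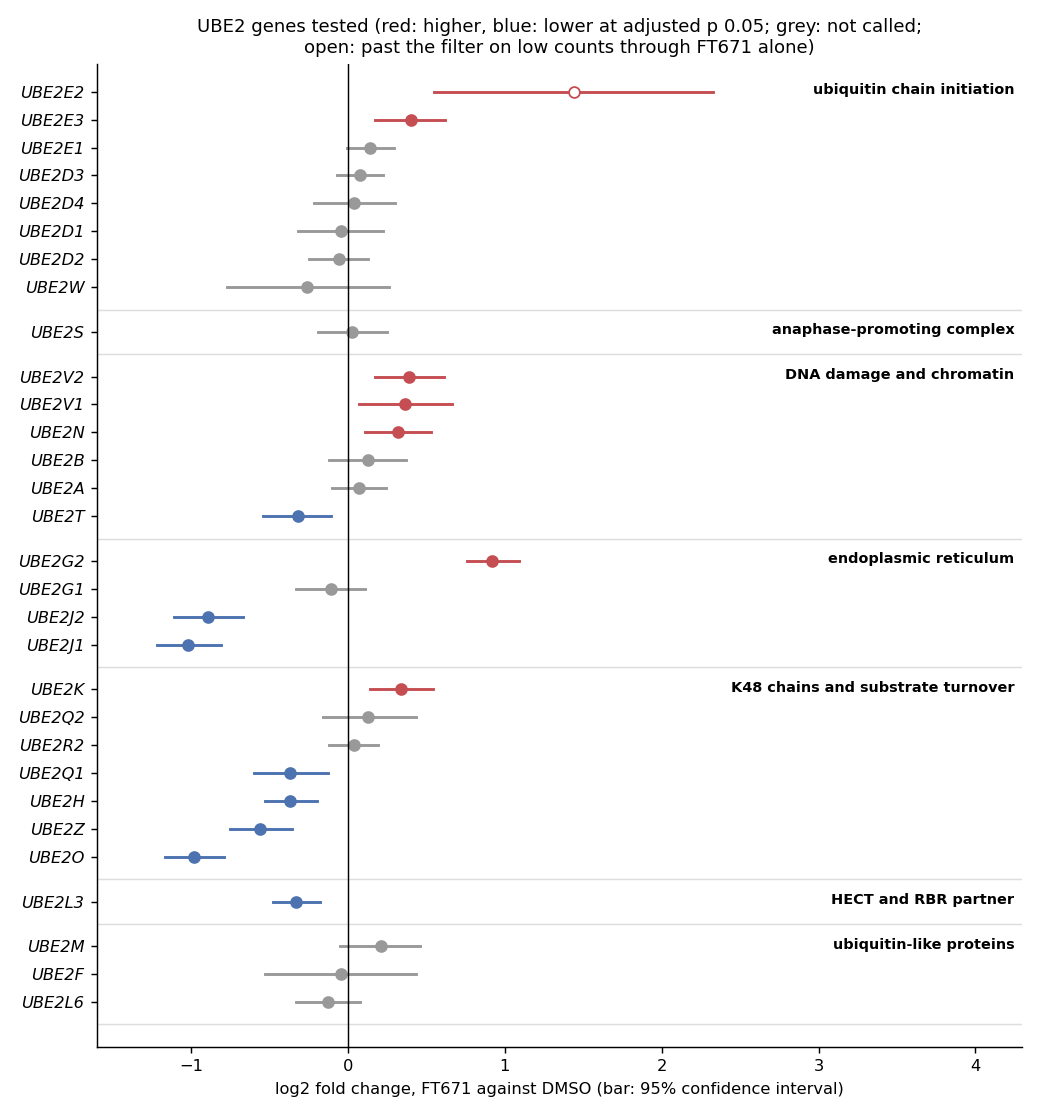
Log2 fold change of 30 of the 31 UBE2 genes tested (x axis, FT671 against DMSO), with its 95% confidence interval as a bar and the genes grouped by role (y axis). Red genes were higher, blue genes lower and grey genes not called at an adjusted p of 0.05; UBE2E2, drawn open, passed the filter through FT671 alone and has the widest interval, from 0.55 to 2.33, and UBE2G2 stands opposite UBE2J1 and UBE2J2 among the endoplasmic reticulum enzymes.

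The E2 enzymes of the endoplasmic reticulum changed in opposite directions. UBE2J1 and UBE2J2, which are anchored in the membrane of the endoplasmic reticulum and work in the degradation of misfolded proteins, fell by about the same amount, while UBE2G2, a soluble E2 that extends K48-linked chains on the same kind of substrate, rose. UBE2G1, the close paralog of UBE2G2, was not called.

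UBE2J1 (ENSG00000198833, hg38 chr6:89326625-89352722, minus strand) had 66.8, 62.1 and 70.4 CPM in DMSO replicates 1, 2 and 3 and 32.0, 34.8 and 31.5 CPM in the FT671 libraries. All FT671 libraries were below all DMSO libraries, by far more than the spread within a group. The log2 fold change was −1.02 (SE 0.0960, adjusted p = 1.61e-06), which is 2.03-fold lower. UBE2J2 (ENSG00000160087, chr1:1253909-1273864, minus strand) had 71.2, 69.5 and 60.3 CPM in DMSO and 33.1, 37.2 and 38.1 CPM in FT671. The groups were again fully separate, with the lowest DMSO value in replicate 3. Its log2 fold change was −0.89 (SE 0.101, adjusted p = 7.87e-06).

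UBE2G2 (ENSG00000184787, chr21:44768580-44801826, minus strand) had 78.7, 77.1 and 84.7 CPM in DMSO and 143, 151 and 160 CPM in FT671. Every FT671 library exceeded every DMSO library. The log2 fold change was 0.92 (SE 0.0777, adjusted p = 5.50e-07), or 1.90-fold higher, and it lay between 0.88 and 1.05 under 18 alternative settings. UBE2G1 had 42.0 ± 2.50 CPM in DMSO and 38.6 ± 3.08 CPM in FT671 (SD, n = 3 each), with a log2 fold change of −0.11 and a 95% confidence interval from −0.33 to 0.11. The interval of UBE2G2 (0.76 to 1.09) did not overlap that of its paralog, although the difference between the genes was not itself tested.

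Per kilobase of annotated exon, the summed level of these 4 genes was between 49.0 and 51.4 CPM per kb in DMSO and between 43.2 and 47.0 CPM per kb in FT671. Every FT671 library was thus below every DMSO library. This holds only per kilobase. Summed CPM without division by length overlapped, at between 248 and 260 in DMSO and between 247 and 271 in FT671. The makeup of the sum per kilobase differed more. UBE2G2 held between 21.3% and 23.0% in the DMSO libraries and between 46.1% and 47.4% in the FT671 libraries. UBE2J1 went from between 30.4% and 33.0%, the largest share in DMSO, to between 16.1% and 18.6%, and UBE2J2 from between 25.1% and 30.2% to between 16.3% and 17.6%. UBE2G1 stayed within 17.2% to 19.7% in all 6 libraries.

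**Figure D2:**
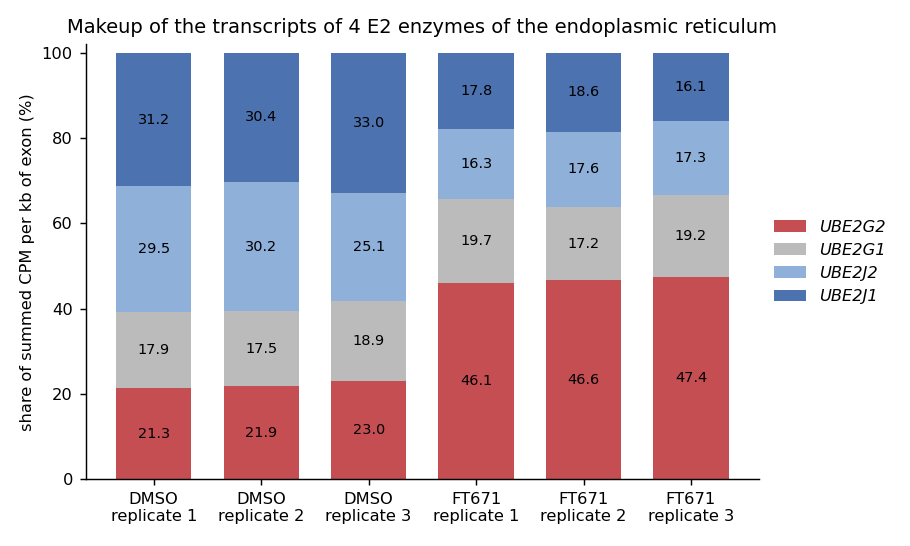
Share of the summed CPM per kb of UBE2G2, UBE2G1, UBE2J2 and UBE2J1 (y axis, percent) in each library (x axis). Each bar adds to 100%; UBE2G2 takes 46.1% to 47.4% in FT671 against 21.3% to 23.0% in DMSO.

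Of 18 genes that work with these E2s in degradation at the endoplasmic reticulum, all tested, 11 were lower and 2 higher at 0.05, beside 26.5% and 23.6% of all genes, and 6 were lower at 1e-05, beside 4.13%, with a median log2 fold change of −0.55 beside −0.01 for all genes. HERPUD1, a membrane protein of the SYVN1 ligase complex, had the largest change, with 63.8, 66.0 and 59.0 CPM in DMSO and 23.3, 26.9 and 24.5 CPM in FT671 (log2 fold change −1.34, adjusted p = 1.95e-07). VCP, the ATPase that pulls ubiquitinated proteins out of the membrane, fell by 1.21 (adjusted p = 3.30e-08), and SEL1L, the adaptor of SYVN1, fell by 1.11 (adjusted p = 2.73e-06). UFD1, a cofactor of VCP, and AUP1, which recruits UBE2G2 to the membrane, were the 2 that rose, by 0.36 and 0.31. AUP1 thus moved in the same direction as UBE2G2, with 195 ± 13.2 CPM in DMSO and 243 ± 15.9 CPM in FT671.

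Among the members that act on single substrates or extend K48-linked chains, 4 of the 7 tested fell and 1 rose. Of all genes tested, 26.5% were lower and 23.6% higher. UBE2O, a large enzyme that combines E2 and E3 activity and clears unassembled ribosomal proteins as red cells mature, fell most. UBE2Z, the E2 loaded by the alternative E1 enzyme UBA6, and UBE2H, the partner of the CTLH ligase in maturing red cells, fell as well. UBE2K, which builds K48-linked chains by itself, rose.

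UBE2O (ENSG00000175931, chr17:76389456-76453152, minus strand) had 87.4, 89.4 and 86.5 CPM in DMSO and 49.5, 42.8 and 42.1 CPM in FT671. The DMSO values lay within a narrow range and all FT671 values were well below it. The log2 fold change was −0.98 (SE 0.0893, adjusted p = 1.14e-06). UBE2Z (ENSG00000159202, chr17:48908407-48929056, plus strand) had 70.4, 71.9 and 66.9 CPM in DMSO and 52.0, 44.9 and 45.9 CPM in FT671. No FT671 library reached the DMSO range. The log2 fold change was −0.56 (SE 0.0909, adjusted p = 0.000180).

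The E1 enzyme UBA6 moved the other way from its dedicated E2, with 89.1, 87.8 and 127 CPM in DMSO and 135, 165 and 146 CPM in FT671. DMSO replicate 3 was the highest of its group and close to the lowest FT671 library. Its log2 fold change was 0.57 (SE 0.125, adjusted p = 0.00180). UBA1, the main E1 enzyme of ubiquitin, had 358 ± 4.17 CPM in DMSO and 347 ± 9.30 CPM in FT671 and was not called (log2 fold change −0.048, 95% confidence interval −0.19 to 0.09). Of the 9 E1 genes, UBA2 fell by 0.49 and SAE1, its partner in SUMO activation, rose by 0.35, both past 0.05.

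UBE2H had 110, 111 and 122 CPM in DMSO and 92.8, 87.7 and 85.9 CPM in FT671. The groups did not overlap, and the log2 fold change was −0.37 (SE 0.0780, adjusted p = 0.00140). Of the 11 genes of the CTLH ligase, 4 fell and 0 rose, beside 26.5% and 23.6% of all genes. MAEA, one of its RING subunits, fell by 1.30 on the log2 scale, from 44.2 ± 0.37 to 18.0 ± 2.16 CPM (adjusted p = 6.60e-07), and the other 3, RANBP9, GID8 and WDR26, by between 0.23 and 0.32. The 7 others were not called, with a median of −0.22 over the list.

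UBE2Q1, which has a long extension before its catalytic domain, fell by 0.37 (adjusted p = 0.0118) from 69.4 ± 7.24 to 53.1 ± 6.38 CPM. That call was lost without FT671 replicate 1 (adjusted p = 0.0598). UBE2K rose by 0.34 (adjusted p = 0.00683) from 107 ± 12.0 to 134 ± 10.8 CPM. UBE2R2, an E2 of the cullin-RING ligases, had a log2 fold change of 0.037 (95% confidence interval −0.12 to 0.19) and UBE2Q2 one of 0.13 (−0.16 to 0.43). UBE2QL1 had 0 counts in all 6 libraries.

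**Figure D3:**
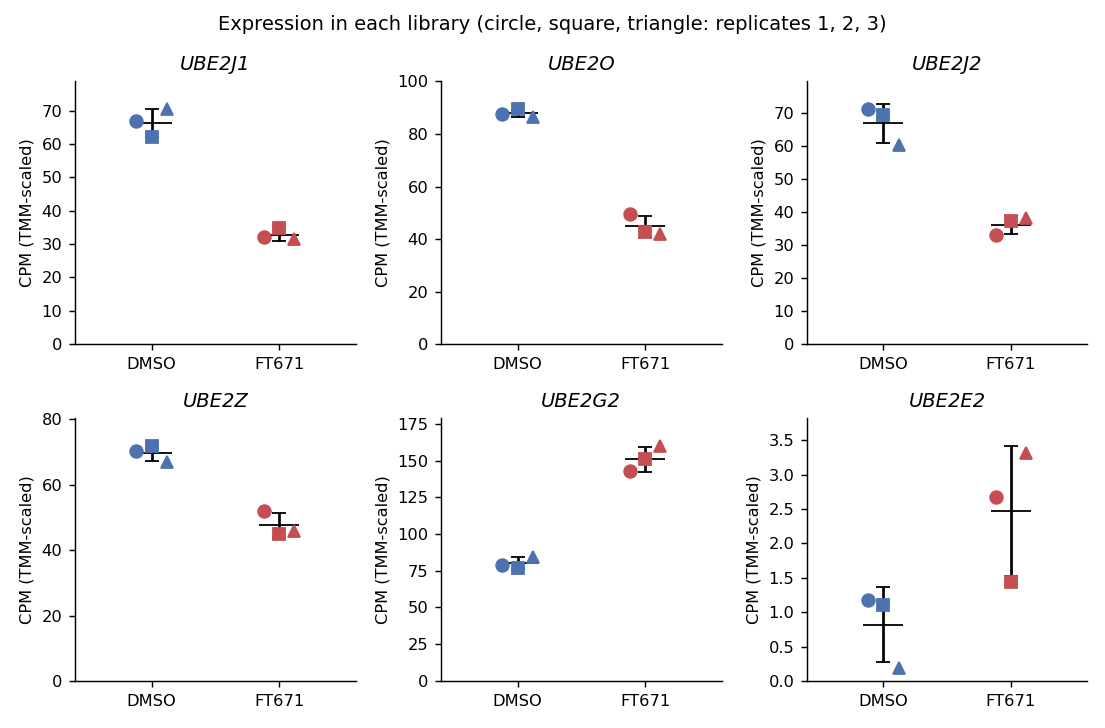
TMM-scaled CPM (y axis, from 0) of the 6 members called at an adjusted p of 0.05 with no overlap between groups and a log2 fold change of at least 0.5 in size, in each library (x axis, by treatment). Black bars give the mean and SD of 3 libraries; UBE2J1, UBE2O, UBE2J2 and UBE2Z sit lower in all FT671 libraries and UBE2G2 and UBE2E2 higher, with UBE2E2 between 0.185 and 3.31 CPM.

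Of the 8 members that start ubiquitin chains, UBE2E3 rose and UBE2E2 was called at very low counts, while the other 6 were not called. Among all genes tested, 23.6% were higher and 26.5% lower. The UBE2D family, broad partners of RING ligases including those of the Polycomb complexes, was not called, with log2 fold changes of −0.046 (UBE2D1), −0.059 (UBE2D2), 0.078 (UBE2D3) and 0.038 (UBE2D4). Per length UBE2D2 stood highest among them, at 57.4 ± 6.58 CPM per kb in DMSO and 55.2 ± 3.35 CPM per kb in FT671. In UBE2D3 all FT671 libraries exceeded all DMSO libraries by a margin smaller than the rounding of these values, with 192, 200 and 205 CPM against 192, 189 and 185 CPM. UBE2W, which attaches ubiquitin to the amino terminus of substrates, had a log2 fold change of −0.26 with a wide interval (−0.77 to 0.26), and its DMSO replicate 3 value of 10.2 CPM was above the 6.44 and 5.13 CPM of the other DMSO libraries.

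For UBE2E1, the study cites earlier work in which USP7 regulated this E2, needed for ubiquitination of histone H2A by PRC1. The study did not find UBE2E1 in its own USP7 pull outs. It proposes that this route likely has no part, or a mild one, in leukemic cells. The values here are of RNA and not of protein. UBE2E1 had 159, 160 and 153 CPM in DMSO and 173, 167 and 179 CPM in FT671. All FT671 values were above all DMSO values, but the shift was small. The log2 fold change of 0.14 (SE 0.0692, 95% confidence interval −0.01 to 0.29) did not pass the test (adjusted p = 0.112), and it passed only with the correction for GC content, with or without the replicate block. Of its annotated exon bases, 33.8% overlap NKIRAS1 on the opposite strand, which had 119, 65 and 40 counts in DMSO and 43, 51 and 115 counts in FT671. The RNA of USP7 itself fell, with 119, 107 and 131 CPM in DMSO and 29.3, 34.1 and 35.8 CPM in FT671 (log2 fold change −1.82, adjusted p = 2.66e-08). Of the RING ligases of the study, TRIM27 fell by 0.41 and RNF2 rose by 0.39, the latter with overlap between the groups.

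UBE2E3, a close relative of UBE2E1, rose from 44.1 ± 3.80 to 58.0 ± 5.85 CPM (log2 fold change 0.40, adjusted p = 0.00568), a call that was lost without FT671 replicate 3, with an adjusted p of 0.0537. UBE2E2 (ENSG00000182247, chr3:23203020-23591794, plus strand) was hardly expressed, with 17, 12 and 1 counts in DMSO and 12, 8 and 37 counts in FT671. This corresponds to 1.18, 1.10 and 0.185 CPM in DMSO and 2.67, 1.44 and 3.31 CPM in FT671. The groups did not overlap in CPM, although DMSO replicate 3 lay under the floor of 3 counts. The cutoff of the filter lay at 1.21 CPM, which 0 DMSO libraries and 3 FT671 libraries reached, so UBE2E2 entered the test through FT671 alone. The fitted log2 fold change of 1.44 (SE 0.414, 95% confidence interval 0.55 to 2.33, adjusted p = 0.0101) is therefore a description and supports no rise. UBE2E2 was not tested without FT671 replicate 3, with at least 10 counts demanded in every library or after thinning to the smallest total.

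In the DNA damage and chromatin group, 3 of the 6 members tested were higher at 0.05 and 1 was lower. Of all genes tested, 23.6% were higher and 26.5% lower. The higher ones were UBE2N, UBE2V1 and UBE2V2, of K63-linked chains, and the lower one was UBE2T. Among these, only UBE2V2 kept its call in all 18 alternatives. UBE2N is the catalytic E2, and UBE2V1 and UBE2V2 are catalytically inactive variants that pair with it. UBE2V2 rose from 61.6 ± 7.38 to 79.8 ± 7.55 CPM (log2 fold change 0.39, adjusted p = 0.00578). UBE2N had 75.0, 82.1 and 65.4 CPM in DMSO and 84.4, 92.7 and 101 CPM in FT671. The lowest FT671 library was thus just above the highest DMSO library, and the log2 fold change was 0.32 (adjusted p = 0.0139). Without FT671 replicate 3 the call was lost, with an adjusted p of 0.0953. Of its annotated exon bases, 41.6% overlap NUDT4 on the opposite strand, which was not called (log2 fold change −0.12).

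UBE2V1 rose by the test, from 12.4 ± 0.515 to 15.7 ± 2.24 CPM (log2 fold change 0.36, adjusted p = 0.0413), but the call was lost in 9 of 18 alternatives. Among them were those without DMSO replicate 1, DMSO replicate 2, FT671 replicate 2 or FT671 replicate 3, with adjusted p-values up to 0.171. It shares 43.2% of its exon bases with the readthrough gene PEDS1-UBE2V1 on the same strand, which had 0 counts in all libraries. UBE2T, which ubiquitinates FANCD2 and FANCI in the Fanconi anemia pathway, fell from 45.6 ± 3.51 to 36.8 ± 1.72 CPM (log2 fold change −0.32, adjusted p = 0.0151). Its call was lost without DMSO replicate 1 or FT671 replicate 3, with adjusted p-values up to 0.0862. UBE2A and UBE2B, the RAD6 enzymes that ubiquitinate PCNA and histone H2B, had log2 fold changes of 0.067 and 0.13 and were not called. Of the exon bases of UBE2A, 15.9% overlap NKRF on the opposite strand.

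Ligases and targets of this group were mixed, and the following counts stand beside 26.5% of all genes lower and 23.6% higher. Of 13 ligases and cofactors of RAD6 and UBE2N, 5 fell and 3 rose, with WAC (−0.72), UBR3 (−0.56), UBR2 (−0.42) and RNF8 (0.42) the largest changes. Of 15 Fanconi anemia genes, 4 fell and 4 rose, led by FANCB (0.90), FANCG (−0.82) and FAAP24 (−0.53).

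UBE2S and UBE2C serve the anaphase-promoting complex, the ligase that drives the exit from mitosis. UBE2C starts the chains and UBE2S extends them. UBE2S was abundant, with 301, 297 and 217 CPM in DMSO and 279, 273 and 281 CPM in FT671. DMSO replicate 3 was the lowest of all libraries, and the groups overlapped (log2 fold change 0.027, 95% confidence interval −0.19 to 0.25). UBE2C was practically absent from the tables, with 3 counts in DMSO replicate 1 and 0 in the other libraries, although its partners were well counted. No gene of GENCODE 44 overlaps its exons, and its 5 annotated pseudogenes held 13, 17 and 6 counts in DMSO and 7, 7 and 24 counts in FT671. NUSAP1, another mitotic gene, also had 3 counts or fewer in every library, whereas PLK1 had 396 CPM in DMSO. The cause of the low counts of UBE2C was not tested. Of 16 subunits and activators of the complex, 5 fell and 3 rose, where 26.5% and 23.6% of all genes did, with FZR1, a coactivator, falling by 0.95, CDC23 falling by 0.42 and ANAPC1 rising by 0.46. The same shares, 26.5% lower and 23.6% higher of all genes, stand beside the cell cycle lists that follow. Of 22 genes of the G2 and M phases tested, 5 fell, led by KIF23 (−1.16), PLK1 (−0.90) and AURKA (−0.78), and 4 rose. Of 20 genes of the G1 and S phases, 9 fell, led by PCNA (−1.44), FEN1 (−0.73) and E2F1 (−0.60), and 4 rose. Whether a shift in the cell cycle took part in the values of UBE2T and UBE2S was not tested.

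UBE2L3, the main E2 of HECT ligases and of ligases of the parkin type, was the member with the highest level per length in DMSO. It had 461, 491 and 480 CPM in DMSO and 370, 364 and 406 CPM in FT671. All FT671 libraries lay below the DMSO range, and the log2 fold change was −0.33 (SE 0.0700, adjusted p = 0.00153). UBE2L5, a close relative, had between 0 and 2 counts per library.

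Among the E2s of ubiquitin-like proteins, UBE2M, UBE2F and UBE2L6 were not called. UBE2M, the main E2 of NEDD8, had 119, 133 and 88.0 CPM in DMSO and 144, 124 and 130 CPM in FT671, so that the groups overlapped (log2 fold change 0.21, 95% confidence interval −0.049 to 0.46). Without DMSO replicate 2, or with the correction for GC content, it was called higher. UBE2F and UBE2L6 had log2 fold changes of −0.048 and −0.13. Among 11 genes for ubiquitin and ubiquitin-like proteins, 7 rose and 0 fell, beside 23.6% and 26.5% of all genes, with a median of 0.30. UBB rose by 0.48 (adjusted p = 6.15e-05) and NEDD8 by 0.41. The same background holds for the lists that follow. Of 15 genes of neddylation and cullins, 7 fell and 3 rose, led by DCUN1D3 (−1.44), CUL5 (−1.23) and CUL1 (−1.16). Of 11 SUMO ligases and proteases, 4 fell and 1 rose, with PIAS4 (−0.66), PIAS2 (−0.60) and PIAS3 (0.39) the largest. Of 8 E2 and E2-like genes that carry other symbols, 2 rose and 2 fell, among them UFC1, the E2 of UFM1 (0.46), TSG101, an inactive E2 variant (−0.44), and ATG10 (0.42). CDC34, the partner of cullin-RING ligases and paralog of UBE2R2, was not called (adjusted p = 0.0882).

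**Figure D4:**
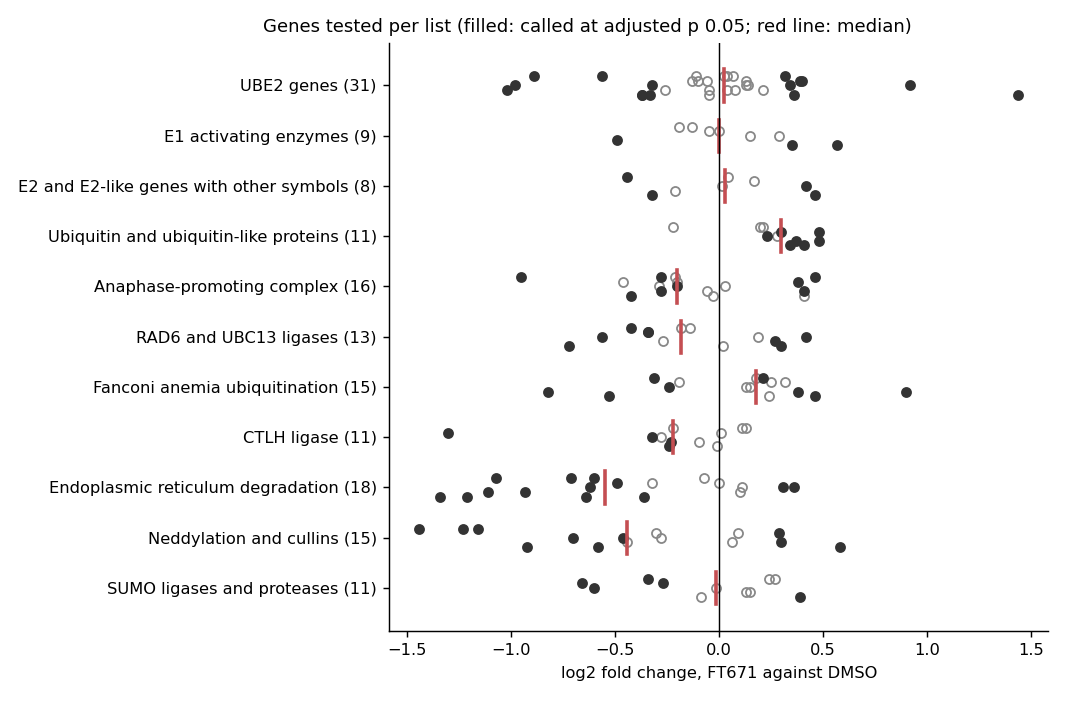
Log2 fold change of each tested gene (x axis, FT671 against DMSO) for the UBE2 genes and for 10 lists of the ubiquitin pathway (y axis, number of genes tested in brackets). Filled points were called at an adjusted p of 0.05 and the red line is the list's median; the median is −0.55 for endoplasmic reticulum degradation, 0.30 for ubiquitin and ubiquitin-like proteins and 0.027 for the UBE2 genes.

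The members left out by the filter on low counts were UBE2C, UBE2U, UBE2QL1, UBE2L5, UBE2NL and UBE2F-SCLY. UBE2U had 0 counts in all libraries, UBE2NL, a retrogene of UBE2N, 1 count in DMSO replicate 1 and none elsewhere, and the readthrough UBE2F-SCLY between 0 and 3. At these depths a count of 0 allows up to between 0.211 and 0.659 CPM. The 54 UBE2 pseudogenes in the tables held 541 counts over all libraries, against 163633 counts for the UBE2 genes, and reads shared between near-identical copies could have been dropped or split by the counting. The pseudogenes of UBE2Q2 had the most counts, with 56, 30 and 12 counts in DMSO and 18, 33 and 83 in FT671, beside 194, 132 and 82 and 73, 81 and 154 counts on UBE2Q2 itself, so the value of UBE2Q2 is uncertain.

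Levels were compared between members only per kilobase of annotated exon. In DMSO, 21 members had at least 10 CPM per kb. UBE2L3 led with 121 ± 3.81 CPM per kb, followed by UBE2S (97.0 ± 16.9), UBE2M (65.1 ± 13.3), UBE2D2 (57.4 ± 6.58) and UBE2E1 (47.0 ± 1.15; SD, n = 3 each). The DMSO ranges of UBE2M (50.5 to 76.4) and UBE2D2 (49.9 to 62.1) overlapped, although UBE2M was the higher in each library. The range of UBE2L3 lay wholly above that of UBE2S, and the range of UBE2S wholly above that of UBE2M. The 5 highest members held between 49.7% and 54.4% of the family's CPM per kb in DMSO and between 52.1% and 54.3% in FT671. From UBE2T, at 23.6 CPM per kb, to UBE2Z, at 12.2, the DMSO range of each member overlapped that of the next. Neighbours in this stretch of the order are thus not fully separated. After FT671, UBE2G2 moved from rank 21, at 11.1 ± 0.551, to rank 10, at 21.0 ± 1.17 CPM per kb. UBE2J1 moved from rank 14 to 22, UBE2J2 from 17 to 23 and UBE2O from 18 to 24. UBE2S took the first place, at 99.2 ± 1.54 against 96.3 ± 5.83 for UBE2L3, a difference within the spread. The summed level of all UBE2 genes was between 694 and 766 CPM per kb in DMSO and between 697 and 735 CPM per kb in FT671.

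**Figure D5:**
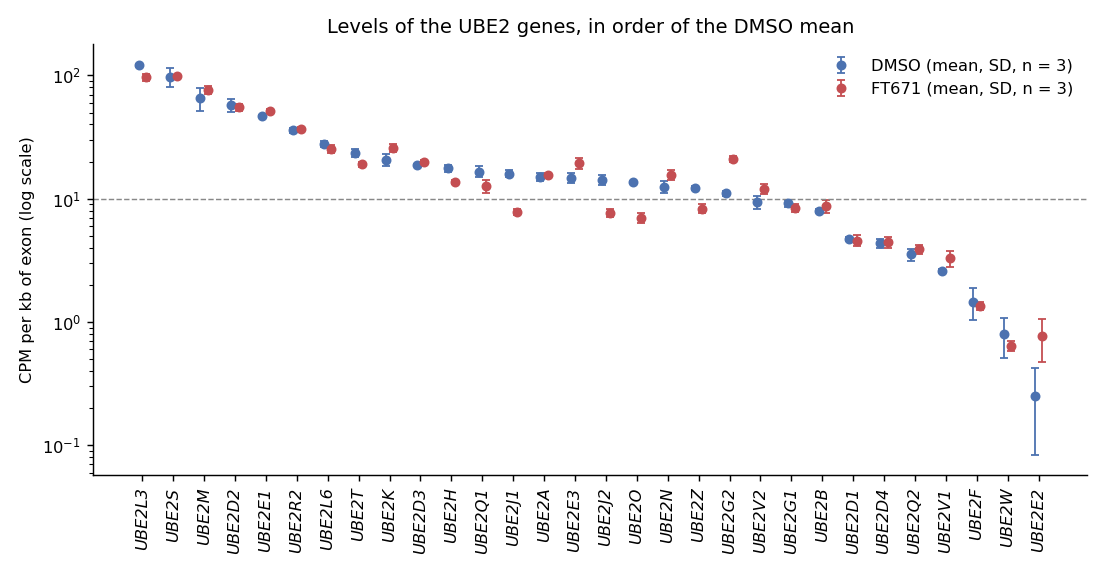
Level of 30 of the 31 tested UBE2 genes in CPM per kb of exon (y axis, log scale), in order of the DMSO mean (x axis), with points and bars for the mean and SD of 3 libraries in DMSO (blue) and FT671 (red). The dashed line marks 10 CPM per kb; UBE2G2 rises from 11.1 to 21.0 while UBE2J1, UBE2J2 and UBE2O drop below the line.

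The promoters of the members with the largest fitted changes in each direction are shown. This lets their CpG content be compared, since the Polycomb complex under study binds unmethylated CpG islands. UBE2E2 is among them, although it passed the filter on low counts through FT671 alone and its fitted change supports no rise. The 150 bases upstream of the RefSeq start (GRCh38.p14) are written 5′ to 3′ on the gene's strand, with CG dinucleotides in capitals. UBE2J1 lies at chr6:89352723-89352872 (minus), UBE2O at chr17:76453153-76453302 (minus), UBE2E2 at chr3:23202948-23203097 (plus) and UBE2G2 at chr21:44801821-44801970 (minus).
UBE2J1: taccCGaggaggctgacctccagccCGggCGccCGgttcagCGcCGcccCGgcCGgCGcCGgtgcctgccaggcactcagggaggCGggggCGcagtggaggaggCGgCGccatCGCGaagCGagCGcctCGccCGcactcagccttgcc
UBE2O: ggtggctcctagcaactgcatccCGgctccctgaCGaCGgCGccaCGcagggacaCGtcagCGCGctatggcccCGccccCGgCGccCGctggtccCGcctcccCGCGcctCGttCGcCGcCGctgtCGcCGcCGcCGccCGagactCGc
UBE2E2: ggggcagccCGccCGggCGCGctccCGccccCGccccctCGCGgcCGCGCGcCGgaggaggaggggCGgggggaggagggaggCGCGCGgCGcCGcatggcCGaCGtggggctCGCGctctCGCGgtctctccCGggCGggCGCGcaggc
UBE2G2: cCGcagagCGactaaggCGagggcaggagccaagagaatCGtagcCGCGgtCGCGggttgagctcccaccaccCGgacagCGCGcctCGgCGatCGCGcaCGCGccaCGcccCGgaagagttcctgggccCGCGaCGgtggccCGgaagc
These stretches hold 20, 25, 28 and 23 CG dinucleotides, and the stretch of UBE2G2, which rose, lies within the range of those of UBE2J1 and UBE2O, which fell.

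RefSeq promoters were matched to 25 of the 31 members tested, and the 250 bases upstream of the start were searched. These stretches of 250 bases held a median of 28.0 CG dinucleotides, against 21.0 over 9863 tested genes with a promoter. The 6 members lower at 0.05 with a promoter had a median of 28.5 (range 14 to 33). The 6 higher ones, UBE2E2 among them, had a median of 30.5 (range 21 to 39), so the ranges overlapped widely. The count of 39 is that of UBE2E2, which passed the filter through FT671 alone. The GC box (GGGCGG, either strand) occurred in 22 of the 25, or 88.0%, against 68.2% of promoters of tested genes. It was found in UBE2J1, UBE2O and UBE2E2 but not in UBE2G2. The ETS motif (CCGGAAG, either strand) occurred in UBE2G2, UBE2J2, UBE2E3 and UBE2N, which is 16.0% of the members against 16.9% of tested genes. The CCAAT box (CCAAT, either strand) occurred in 28.0% against 35.6%, the CHR element (TTTGAA) in 2 of the 25, UBE2T and UBE2F, against 8.14% of tested genes, the cAMP response element (TGACGTCA) in UBE2S alone, and the E-box (CACGTG) in 0 of 25 against 9.08%. All motifs were searched on both strands, and none contains another. A match describes letters in this window and is not evidence of binding.

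Across the 31 members, which share the same libraries and are not independent replicates, the log2 fold change had a Pearson's r of −0.08 with log2 exon length and −0.24 with exon GC content, and over the 25 with a promoter it was 0.20 with the promoter's CpG count. Over all genes with these annotations r was −0.12, −0.07 and −0.04. UBE2E2, which passed the filter through FT671 alone, is among the 31 and the 25. It has both the highest promoter CpG count of the 25 (39) and the largest log2 fold change (1.44). How far the members' values of r rest on it was not tested, so no relation is drawn from them. With counts corrected for GC content the log2 fold change was −1.04 for UBE2J1, −0.89 for UBE2O, −0.79 for UBE2J2 and 0.97 for UBE2G2. With the correction for exon length these were −0.97, −0.87, −0.83 and 1.05.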

How the data were processed

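RNA-seq libraries of K562 cells treated with DMSO (n = 3) or 10 μM FT671 for 48 h (n = 3) were analysed. Total RNA was depleted of ribosomal RNA (KAPA RNA HyperPrep with riboErase) and sequenced paired-end on a NextSeq500. Reads were mapped by the authors with two-pass STAR (hg38), and the deposited values are raw counts per gene. The submitters' processing notes also name DESeq2. The STAR version, annotation release and strand setting are not given in the sources used here, so overlapping genes on opposite strands may not be separable. Gene identifiers were matched to GENCODE 44 (60295 of 60609), and promoters were taken from RefSeq (GRCh38.p14).

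Counts were analysed with edgeR 4.0.16 in R 4.3.3. Genes were filtered with filterByExpr, libraries scaled by TMM, and groups compared by the quasi-likelihood test over all 6 libraries without covariates, with Benjamini-Hochberg adjustment. The standard error is that of the log2 fold change. Levels per kilobase used the union of exons. The fit was tested on simulated data. Total counts ranged from 4555220 to 14250500 per library, and the depth limits genes under about 3 counts per library. Nothing but the labels set the groups, and p-values measure the spread between these cultures.

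The UBE2 list, the role groups and the pathway lists were chosen with earlier results of these data known. The UBE2 genes are named, except that a member and a few other genes the rule would name are not reported here. Library values, SE and adjusted p are given for members called at 0.05 without overlap and with a log2 fold change of at least 0.5 in size, and more library values were added where a call was close or turned on a library. Outside the members, UBA1, UBA6, USP7 and up to 3 called genes per list with the largest change were named, together with overlapping genes. AUP1, UFD1, UBR2, WDR26, GID8, CDC34 and NUSAP1 were added after their values were seen.

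Alternatives were DESeq2 1.42.0 size factors and its Wald test, library totals, no filter, a minimum of 10 counts in each library, only protein-coding genes, loess corrections (span 0.3) for exon length or GC content, the replicate number as a block, thinning to the smallest total and leaving out each library.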

Additional observations from a re-analysis of the deposited data

How the results depend on the processing

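Of the 15 UBE2 genes called at 0.05, UBE2J1, UBE2O, UBE2J2, UBE2Z, UBE2H, UBE2L3, UBE2G2, UBE2K and UBE2V2 kept the call in all 18 alternatives, UBE2E2, which passed the filter through FT671 alone, in the 15 that tested it, and no member reversed a called direction. The others lost it as given beside them. Calls were gained for UBE2D2 without DMSO replicate 3, for UBE2D3 with the correction for exon length (with and without the block), for UBE2E1 and UBE2M with the correction for GC content (with and without the block) and for UBE2M without DMSO replicate 2. The members higher at 0.05 numbered between 3 and 7 when 1 library was left out, with 3 without FT671 replicate 3. Those lower at 1e-05 numbered between 0 and 4 and those higher between 0 and 1.

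The median log2 fold change of the members was near 0 throughout. It was 0.027 as reported, −0.0055 with library totals, −0.013 without the filter on low counts, −0.012 with at least 10 counts in every library, 0.067 with the correction for exon length (0.075 with the block) and 0.067 with that for GC content (0.059 with the block), and between −0.012 and 0.042 with 1 library left out. The cause was not tested. Over all genes, the median shift per gene from the reported fit was −0.034 with library totals and 0.018 with DESeq2 size factors. It was 0.063 with the correction for exon length and 0.045 with that for GC content.

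Deviations of same-numbered DMSO and FT671 libraries correlated across genes by 0.115, −0.0605 and 0.14. Those of differently numbered libraries correlated by between −0.168 and 0.125. These values do not settle whether the cultures were paired, and the main test did not pair them. With the replicate number as a block, 14 of the 15 calls were kept, with 8 members lower and 6 higher, and UBE2V1 was lost. Depth limits UBE2E2 and the 6 members under the filter.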
